A study of Mus musculus with 4 samples.

Results

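Wnt3, Wnt4, Wnt6 and Wls are 4 genes of Wnt signalling, 3 of them encoding Wnt ligands and Wls encoding the carrier that takes Wnt proteins to the cell surface. They are listed by symbol, and each was measured by 1 probe set that the array annotation gives to that gene alone, out of 8251 named genes. The genes were chosen by their high values in control cells without LIF, already known, so the values below that concern LIF withdrawal or the difference between the lines are a description and carry no test. RNA came from E14tg2a, a mouse embryonic stem cell line kept without feeder cells, and was read on 4 Affymetrix arrays. Control cells and cells expressing the kinase Akt in a constitutively active form (Akt12 in the titles, called Akt cells here) were each sampled in 2 media. One held 3000 U/ml of leukemia inhibitory factor (LIF), and the other left LIF out for 4 days. Each of these 4 groups holds 1 array. The species and isoform of the introduced Akt, the promoter that drives it, whether Akt12 is a single clone and any empty vector in the control cells are details that the sources used here do not give.

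Wnt proteins are secreted glycoproteins that carry a lipid, added in the endoplasmic reticulum by the acyltransferase Porcn. Wls, a membrane protein also known as Evi or Gpr177, binds the lipid-bearing ligand and escorts it to the plasma membrane, after which the retromer complex can return Wls from endosomes. At the receiving cell the ligand engages a Frizzled receptor with the coreceptor Lrp5 or Lrp6, which stops the degradation of beta-catenin and lets it act with TCF/LEF factors on target genes. Other Wnt proteins act on cell polarity and calcium without beta-catenin. In the mouse embryo Wnt3 is required for the primitive streak to form. Wnt4 is best known from kidney and gonad development, and Wnt6 from epithelial tissues. In embryonic stem cells, Wnt signals are known both to help sustain self-renewal beside LIF and to drive mesoderm formation.

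The deposited intensities were quantile normalized, which gives every array the same distribution. Intensities below 15.8, which is their 40th percentile over the arrays, were set to that floor, because intensities that low were not taken as distinct from background. A gene was counted as different between 2 arrays when it was above the floor on at least 1 of them and its values differed at least 2-fold. With 1 array per group this count has no test and no replicate error. Where 1 of the arrays was at the floor, the fold is a lower limit and is given as "at least". The only error estimate these arrays allow is the spread between probe sets of the same gene. Over 747 genes with several probe sets above the floor on all arrays, the pooled SD of their log2 differences was 0.401 for LIF withdrawal in the control line and 0.335 in the Akt line. That SD covers probe sets and not cultures, and none of the 4 genes has a second probe set to compare.

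The arrays themselves carried the markers of the labelled cell type. Of 8 genes that mark undifferentiated mouse embryonic stem cells, 7 were above the floor on every array, and Esrrb was at the floor on all 4. Their summed normalized intensity was 6980 in control cells with LIF and 1770 without, and 7540 in Akt cells with LIF and 4290 without. Without LIF, 5 of the 7 were at least 2-fold lower in control cells (71.4%, against 6.4% of all genes). In Akt cells 3 were (42.9%, against 3.65%). Single markers differed. Nanog had log2 differences of -0.92 in control and -1.11 in Akt cells, and by a second probe set -1.04 and -0.67. Utf1 had -2.44 and 0.64. The 3' to 5' signal ratio of actin, which reports RNA integrity and labelling, ran from 1.66 on the array of control cells without LIF to 3.04 on that of Akt cells with LIF. The same ratio for Gapdh ran from 2.46 in Akt cells without LIF to 3.19 in control cells without LIF. The array on which all 4 genes were highest thus had the lowest actin ratio and the highest Gapdh ratio, and the part of RNA quality in their values was not tested.

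The promoters of the genes are shown for Wnt3, which was higher without LIF in both lines, and for Wnt6 and Wls, which were called higher in control cells only. Each runs from 250 bases before the RefSeq start site to 50 bases from it, 5′ to 3′ on the gene's strand, in build GRCm38.p6, with GC boxes (GGGCGG on either strand) and the TCF/LEF core in its form CTTTGTT in capitals.
Wnt3, chr11:103773925-103774224, plus strand: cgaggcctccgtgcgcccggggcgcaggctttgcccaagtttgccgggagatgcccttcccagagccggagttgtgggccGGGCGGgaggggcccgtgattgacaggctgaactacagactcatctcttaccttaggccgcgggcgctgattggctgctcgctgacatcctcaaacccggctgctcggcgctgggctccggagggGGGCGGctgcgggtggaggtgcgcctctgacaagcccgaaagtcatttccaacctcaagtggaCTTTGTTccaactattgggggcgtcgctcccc
Wnt6, chr1:74771642-74771941, plus strand: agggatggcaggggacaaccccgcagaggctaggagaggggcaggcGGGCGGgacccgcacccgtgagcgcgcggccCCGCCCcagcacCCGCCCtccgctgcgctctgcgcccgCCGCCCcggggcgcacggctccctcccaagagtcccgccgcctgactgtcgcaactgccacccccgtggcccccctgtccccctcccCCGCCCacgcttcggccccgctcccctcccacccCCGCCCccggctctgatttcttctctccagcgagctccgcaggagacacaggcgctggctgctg
Wls, chr3:159839400-159839699, plus strand: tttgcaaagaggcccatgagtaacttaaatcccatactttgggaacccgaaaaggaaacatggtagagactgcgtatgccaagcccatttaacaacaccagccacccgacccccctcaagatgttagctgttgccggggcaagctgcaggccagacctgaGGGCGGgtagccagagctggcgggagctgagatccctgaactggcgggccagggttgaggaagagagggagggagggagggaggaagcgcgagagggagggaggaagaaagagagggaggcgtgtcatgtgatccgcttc

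The promoters differed in composition and in the letters found. Wnt4, whose promoter lies on chromosome 4, had a GC content of 84.3%, Wnt6 of 76.7%, Wnt3 of 65.7% and Wls of 58.0%, against a median of 52.7% over 32851 promoters of the same length. GC boxes numbered 8 in Wnt4, 6 in Wnt6, 2 in Wnt3 and 1 in Wls, and 35.7% of all these promoters held at least 1. The TCF/LEF core CTTTGTT occurred once in the set, in Wnt3 on the gene's strand, beginning 18 bases after the start site, and 5.85% of all promoters held it on either strand. The other form of that core, CTTTGAT, was in none of the 4, and in 3.73% of all promoters. The CCAAT box, written CCAAT, was found in Wnt3 only, with 2 matches on the other strand, and in 37.4% of all promoters. The AP-2 motif GCCNNNGGC had 2 matches in Wnt3, 2 in Wnt4, 1 in Wnt6 and 0 in Wls, and 16.6% of all promoters held it. The STAT motif TTCNNNGAA, the AP-1 motif TGANTCA and the TATA box TATAAA had no match in any of the 4 windows, and were held by 8.3%, 7.81% and 13.6% of all promoters.

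Wls, the cargo receptor, had the highest intensity of its own 4 arrays in control cells without LIF. Its normalized intensity was 49.7 with LIF and 517 without in control cells, and 29.1 with LIF and 34.1 without in Akt cells. All 4 were above the floor, and only the second stood far from the others. Withdrawal of LIF was accompanied by a 10.4-fold higher value in control cells and a 1.17-fold higher value in Akt cells, which are log2 differences of 3.38 and 0.23. Among 5286 genes above the floor on both control arrays, 4 had a larger difference upward than Wls. Genes at the floor on 1 of these arrays, such as Wnt4, were not ranked. The choice of the genes used this contrast, so nothing is read from their ranks in control cells. In bulk RNA, more cells that express a gene and more of its RNA per cell cannot be told apart, and this holds for every value below.

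Wnt6 was at or near the floor on 3 arrays and well above it on the fourth. Its intensity was 19.9 with LIF and 311 without in the control line, against 14.7 and 25.8 in the Akt line. In control cells it was 15.6-fold higher after withdrawal, from a starting value only 1.26 times the floor. In Akt cells it was at least 1.63-fold higher, a lower limit that was not called and that cannot show whether Wnt6 passed 2-fold. Of the 5286 genes above the floor on both control arrays, 1 had a larger difference, with genes at the floor on 1 array again not ranked.

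Wnt4 was above the floor in control cells without LIF alone. The normalized intensities were 13.8, 224, 2.17 and 6.3, in the order control with LIF, control without, Akt with LIF and Akt without. The value in control cells without LIF was 14.2 times the floor, so Wnt4 was at least 14.2-fold higher there than in control cells with LIF. Both Akt arrays were at the floor, so no LIF difference can be given for Wnt4 in Akt cells.

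Wnt3, the ligand of the primitive streak, followed another course. Its intensity was 75.1 in control cells with LIF and 376 without, and 26.2 in Akt cells with LIF and 114 without. It was above the floor on every array and higher without LIF in both lines, by 5.01-fold in control and 4.33-fold in Akt cells. Among 5339 genes above the floor on both Akt arrays, 6 had a larger difference upward than Wnt3, and among the control arrays' 5286 genes, 40 did. Wnt3 was 2.86-fold lower in Akt than in control cells with LIF and 3.31-fold lower without it. The difference between media was thus of like size in the lines, at a lower level in Akt cells.

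**Figure D1:**
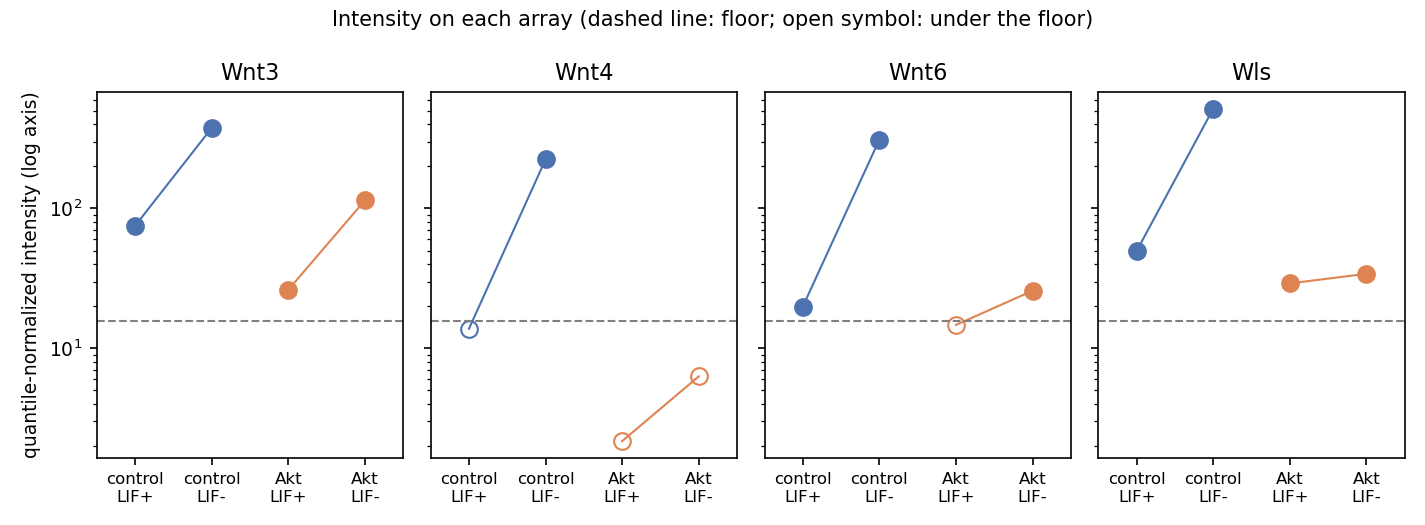
Quantile-normalized intensity (log axis) of Wnt3, Wnt4, Wnt6 and Wls on each of the 4 arrays, 1 point per array, with lines joining the arrays of 1 line, the floor of 15.8 dashed and values under it open. Each gene was highest in control cells without LIF, at 376, 224, 311 and 517, and in Akt cells only Wnt3 was called at least 2-fold higher without LIF. Both Akt points of Wnt4 lie under the floor, so the rise drawn between them is no measured difference.

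Counted together, 4 of 4 genes passed 2-fold upward after LIF withdrawal in control cells, where 7.39% of 5984 genes were higher and 6.4% lower. The choice of the genes used this contrast, so nothing is read from that count. In Akt cells Wnt3 alone of the 4 was called at least 2-fold higher, where 3.01% of 5945 genes were higher and 3.65% lower. There Wnt6 had only a lower limit, and Wnt4 was at the floor on both arrays. Of 442 genes that passed 2-fold upward in the control line, 46 did so in the Akt line as well, which is 10.4% of that list and 25.7% of the 179 genes higher in Akt cells. The split of all called genes moved with the scaling. In control cells 53.6% of the called genes were higher, 30.2% with the values as deposited and 25.4% with arrays scaled to the hybridization controls. In Akt cells 45.2% were higher, and 28.6% with the hybridization controls. The scaling to these controls moved the all-gene median of log2 differences to -0.32 in control cells and -0.13 in the Akt line. With it, the 4 genes still had log2 differences of 1.93 (Wnt3), 3.67 (Wnt4), 3.63 (Wnt6) and 3.02 (Wls) in control cells.

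The response of Akt cells minus that of control cells was -3.15 in log2 for Wls and -0.21 for Wnt3, against a median of 0.04 over 5027 genes that passed the floor on every array. From the bottom of the 5027 genes, Wls was 5th and Wnt3 1774th. The choice of the genes used control cells without LIF, so nothing is read from these ranks. For Wnt6 the value was -3.26 with Akt cells with LIF counted at the floor, and the intensity behind that array, 14.7, lay just under it. Scaling turned the sign for Wnt3, to 0.12 with values as deposited and 0.03 with the hybridization controls. With the floor at the 60th percentile the Wnt3 value was -1.08, since Akt cells with LIF then fell to the floor. With 4 arrays the difference between the lines leaves no residual error and was not tested.

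**Figure D2:**
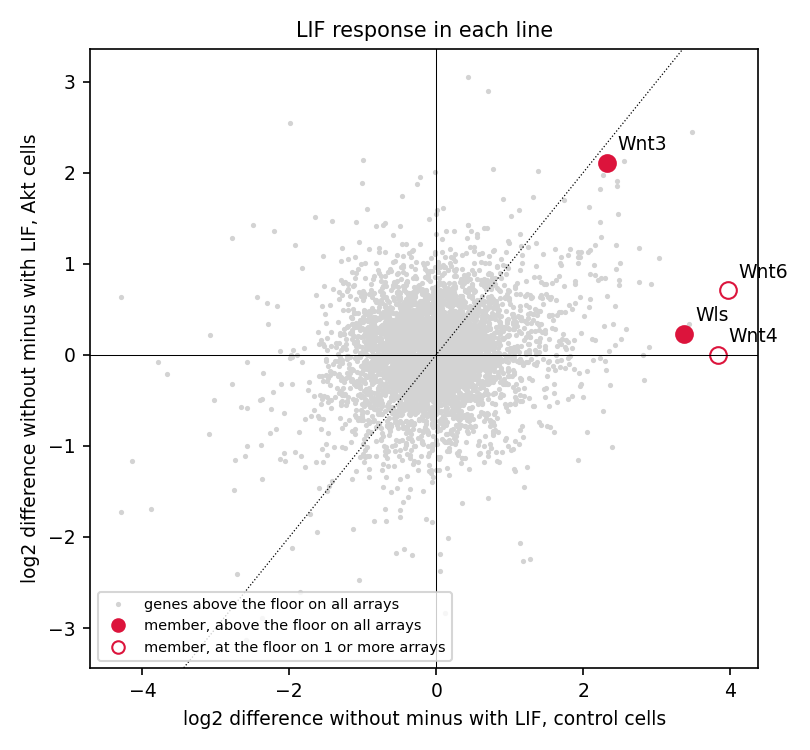
Log2 difference without minus with LIF in control cells (x axis) and in Akt cells (y axis); grey points are 5027 genes that passed the floor on every array, red points the 4 genes, open where an array was at the floor, and the dotted line marks equal responses. Wnt3 lies near that line at 2.33 and 2.11, while Wls lies at 3.38 and 0.23. Wnt6 is drawn at 3.97 and its lower limit of 0.71, and Wnt4 at 0 on the y axis because both Akt arrays were at the floor, which is no measured difference.

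The lines were also compared directly in each medium, using the same arrays as above, so these values are not independent of the LIF responses. Without LIF all 4 genes were at least 2-fold lower in Akt cells, where 8.12% of 6009 genes were lower and 5.87% higher. Wls was 15.2-fold lower and Wnt6 12.1-fold lower. Wnt4 was at least 14.2-fold lower and Wnt3 3.31-fold lower. With LIF, Wnt3 was the only member called at least 2-fold lower, where 3.64% of 5938 genes were lower and 3.5% higher. Wls was 1.71-fold lower with LIF, Wnt6 at least 1.26-fold lower, and Wnt4 at the floor in both lines. The share of higher genes among those called was 49.1% with LIF, 6.18% with the values as deposited and 34.3% with the hybridization controls. Without LIF it was 42.0%, and 18.8% with the values as deposited.

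Other Wnt ligands were measured as well, 11 genes beside the 3. Of the 14 ligand genes on the array, 4 were at the floor on both control arrays, Wnt2b, Wnt7a, Wnt10b and Wnt11. Of the 10 others, 5 passed 2-fold upward without LIF in control cells (where 7.39% of all genes did) and none downward (6.4% of all genes). Their median log2 difference was 0.98, against -0.03 over all genes tested. Without the 3 chosen ligands, 2 of 7 were higher (28.6%) and the median was 0.31. They were Wnt10a, from 24.1 to 94.3 (3.91-fold), and Wnt5b, from 10.7 to 44.9 (at least 2.84-fold). In Akt cells Wnt10a was 1.18-fold higher, from 21.5 to 25.3, and Wnt5b at least 1.15-fold, from 12.2 to 18.2. Wnt8a was the only other ligand called in Akt cells, from 2.95 to 35.6 (at least 2.26-fold), while in control cells it went from 5.97 to 19.0, at least 1.21-fold. The Wnt8a call was lost with the values as deposited, and those of Wnt8a, Wnt10a and Wnt5b with the floor at the 60th percentile. Wnt1, a ligand of the developing midbrain, had log2 differences of 0.46 and 0.52, and Wnt3a, the closest relative of Wnt3, bounds of 0.26 and 0.03.

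**Figure D3:**
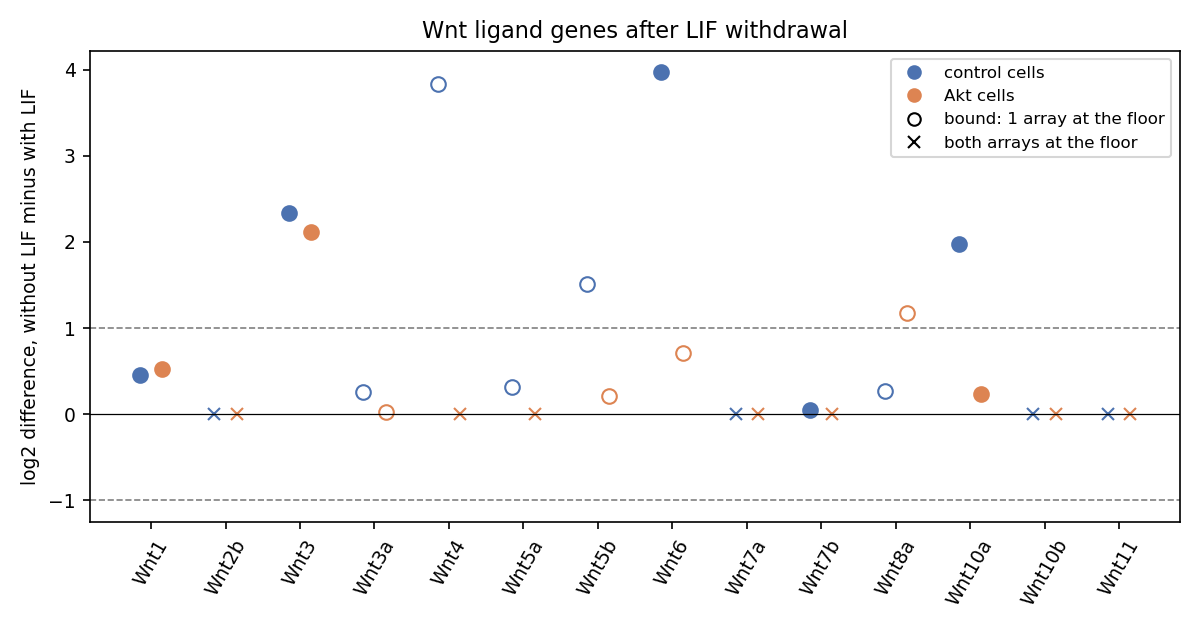
Log2 difference without minus with LIF for the 14 Wnt ligand genes on the array in control cells (blue) and Akt cells (orange), filled where both arrays were above the floor, open for a bound, and a cross where both were at the floor; dashed lines mark 2-fold. Wnt6, Wnt4, Wnt3, Wnt10a and Wnt5b pass 2-fold in control cells, and Wnt3 and Wnt8a in Akt cells.

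Wnt10a is also the next protein-coding gene after Wnt6 on chromosome 1 in the RefSeq order. The next gene beyond it, Cdk5r2, was at 16.9 with LIF and at the floor without in control cells. Wnt3 lies on chromosome 11 between Wnt9b, not measured here, and Nsf, a membrane fusion ATPase gene with log2 differences of -0.44 in control and -0.41 in Akt cells. The next gene after Wnt4, Cdc42, had differences of 0.33 and 0.24. No measured neighbour within 3 genes of Wnt3 or Wnt4 passed 2-fold in a LIF comparison. Within 3 genes of Wnt6 it was Wnt10a alone, and no listed gene within 3 of Wls was measured here.

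Of 8 measured genes for lipidation, export and removal, Wls alone was at least 2-fold higher in control cells (12.5%, against 7.39% of all genes). The choice of Wls used this contrast, so nothing is read from that count. None was higher in Akt cells. In each line 1 gene was lower (12.5%, against 6.4% of all genes in control and 3.65% in Akt cells). The median was -0.26 in each line. Vps26a, a subunit of the retromer that recycles Wls, was 2.62-fold lower without LIF in control cells, from 328 to 125, and 2.01-fold lower in Akt cells, from 486 to 242. The retromer subunit genes Vps35 and Vps29 had log2 differences of -0.29 and 0.06 in control cells and -0.59 and -0.36 in Akt cells. Snx3, a sorting nexin that acts with retromer on Wls, had -0.22 and -0.50. Porcn and Notum were not measured here.

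Among receptors and coreceptors, 3 of 12 genes above the floor passed 2-fold upward in control cells (25.0%, against 7.39% of all genes) and none downward, and the median was 0.54. In Akt cells 2 of 11 were higher (18.2%, against 3.01% of all genes), none was lower, and the median was 0.35. Fzd2, a Frizzled receptor gene, was the only one called in both lines. Its intensities were 58.1 and 152 in control cells with and without LIF, and 21.0 and 85.1 in Akt cells, which is 2.61-fold and 4.05-fold higher. Like Wnt3, Fzd2 was lower in Akt than in control cells with LIF, by 2.76-fold. Ror2, a receptor tyrosine kinase gene of the branch without beta-catenin, was 3.26-fold higher in Akt cells and 1.89-fold in control cells. The glypican genes Gpc3 and Gpc4, whose products bind Wnt at the cell surface, were 2.59-fold and 2.20-fold higher in control cells and 1.27-fold and 1.59-fold in Akt cells. Both calls were lost with the hybridization controls, that of Gpc4 also with values as deposited, and that of Fzd2 in Akt cells with the floor at the 60th percentile. Lrp6 had log2 differences of 0.45 and -0.58.

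Secreted and membrane antagonists and agonists were mostly low. In control cells 6 of 13 were above the floor, with 1 at least 2-fold higher and 1 lower (16.7% each, against 7.39% and 6.4% of all genes). In Akt cells 8 were, with 1 higher (12.5%, against 3.01%). Sfrp1, a secreted Frizzled-related inhibitor gene, went from 55.4 to 3.45 in control cells, at least 3.51-fold lower, and was 61.7 and 53.0 in Akt cells. Its relative Sfrp2 was 2.26-fold higher in Akt cells, from 58.8 to 133, and 1.72-fold lower in control cells, from 103 to 59.9. Dkk1, an inhibitor that binds Lrp5 and Lrp6 and is itself a beta-catenin target, was at least 2.06-fold higher in control cells, a call lost with the hybridization controls and with the floor at the 60th percentile. The Sfrp1 call was lost with that floor. The median of the list in control cells was 0.15, and -0.03 with values as deposited; it was also below 0 with either other floor.

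Of 15 cytoplasmic genes above the floor, none was at least 2-fold higher and 1 lower in each line (6.67%, against 6.4% of all genes lower in control and 3.65% in Akt cells). Ctnnb1, the gene of beta-catenin, had log2 differences of -0.17 and -0.08, and Axin1, a scaffold of its destruction complex, of -0.03 and 0.06. The gene lower in control cells was Dvl2, a Dishevelled gene (2.81-fold, from 94.7 to 33.7; lost when probe sets were averaged), and in Akt cells Csnk1e, a casein kinase gene (2.26-fold, from 125 to 55.4). The median in control cells was 0.06, and -0.25 with values as deposited and -0.30 with the hybridization controls. Of 17 nuclear factors, 2 were lower in the control line (11.8%) and 1 in the Akt line (5.88%), with medians of -0.16 and 0.26. Ruvbl1 and Ruvbl2, helicase genes of chromatin complexes, were 2.16-fold and 2.31-fold lower in control cells, though a second probe set of Ruvbl1 gave a log2 difference of 0.41. Tle5, a short Groucho-family corepressor gene, was 2.15-fold lower in Akt cells. Of the TCF/LEF genes measured, none passed 2-fold in control cells, with Lef1 at 0.98, Tcf7l2 at 0.26 and Tcf7l1, a repressor in stem cells, at -0.99. A second probe set of Tcf7l1 gave -0.72. A second probe set of Lef1 gave 0.65 in control cells and 2.04 in Akt cells, where the first gave 0.71.

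Among 20 beta-catenin target genes above the floor, 9 passed 2-fold upward in control cells (45.0%, against 7.39% of all genes) and none downward. The median was 0.96, and the list counts Wnt3 among its members. Evx1, a homeobox gene of the primitive streak, was at least 7.73-fold higher, from 3.75 to 122, and Fgf8, a streak growth factor gene, at least 2.48-fold. The mesenchymal transcription factor genes Snai1 and Twist1 were higher too, Snai1 by at least 3.4-fold and Twist1 by 3.19-fold. The urokinase receptor gene Plaur was 2.90-fold higher and Jun, an AP-1 subunit gene, at least 2.88-fold. The Snai1, Twist1, Jun and Fgf8 calls were lost with the floor at the 60th percentile. In Akt cells 1 of 19, Wnt3, was higher (5.26%, against 3.01% of all genes). Another 1, the growth factor gene Bmp4 (4.18-fold), was lower (5.26%, against 3.65%), and the median was 0.42. Neither Evx1 nor Fgf8 passed the floor in Akt cells. Axin2, the target most often used as a readout of beta-catenin, stayed close to the floor in every group, at 15.1 and 21.4 in control and 14.5 and 21.8 in Akt cells. Of the planar polarity and calcium genes above the floor, none of 11 was higher and 1 lower in control cells (9.09%, against 6.4% of all genes). In Akt cells none of 12 was higher and 1 lower (8.33%, against 3.65%). The lower genes were, in turn, Camk2b, a calcium-dependent kinase gene (at least 2.92-fold), and Nlk, a kinase gene that restrains TCF factors (2.40-fold). The calls of Camk2b, Nlk, Tle5 and Dvl2 were lost with the floor at the 60th percentile, and that of Ruvbl1 when probe sets were averaged.

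**Figure D4:**
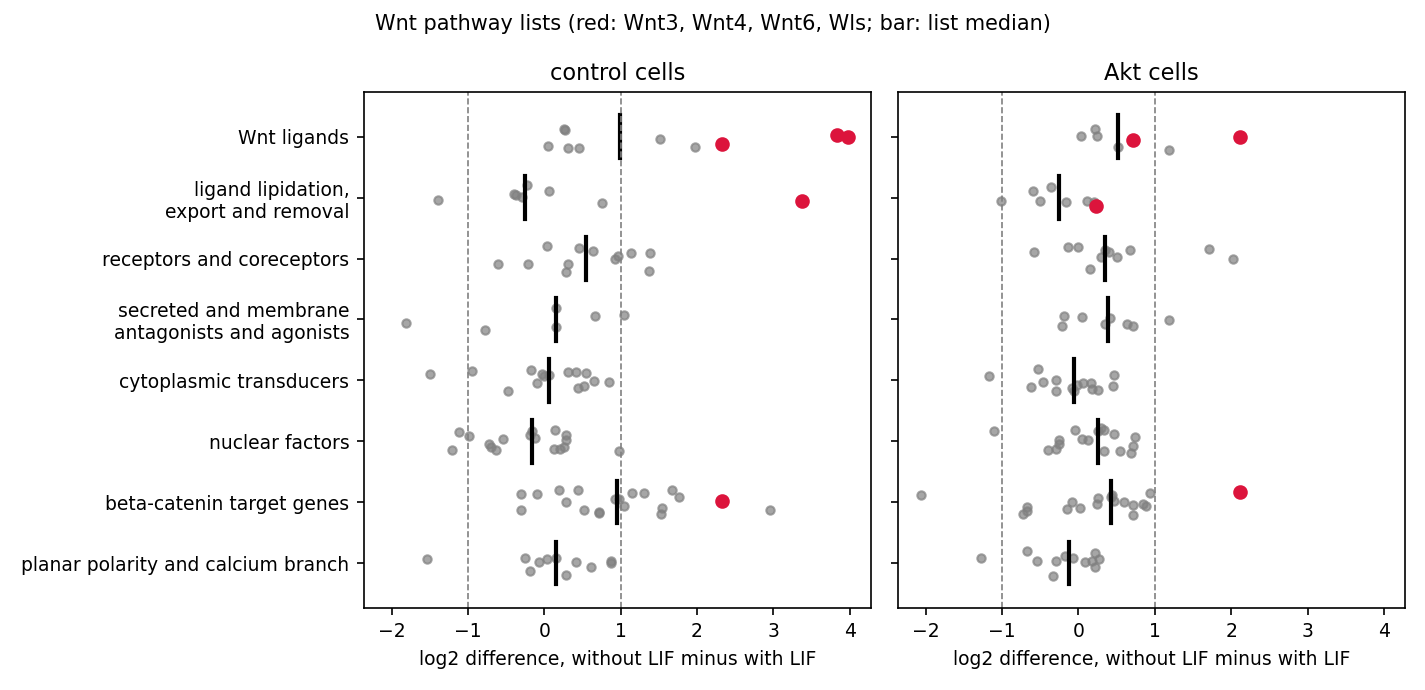
Log2 difference without minus with LIF for each gene above the floor on at least 1 of both arrays, by role, in control cells (left) and Akt cells (right); red points are Wnt3, Wnt4, Wnt6 and Wls, black bars the list medians, and dashed lines 2-fold. In control cells the ligand and target lists have medians of 0.98 and 0.96 and the other lists lie between -0.26 and 0.54.

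Over all 8 lists without the 4 genes, 13 of 91 passed 2-fold upward in control cells (14.3%, against 7.39% of all genes) and 6 lower (6.59%, against 6.4%). In Akt cells 4 of 90 were higher (4.44%, against 3.01%) and 5 lower (5.56%, against 3.65%). The medians were 0.26 and 0.12. With the 4 genes included they were 0.27 and 0.15, and the scaling to hybridization controls turned both, to -0.02 and -0.03.

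The summed level of each list of markers of other cell types was highest in control cells without LIF, as were the 4 genes, though single markers differed. The summed intensity of 8 trophoblast and simple epithelium markers was 829 in control cells with LIF, 2450 without, 742 in Akt cells with LIF and 909 without. In control cells 5 of the 8 passed 2-fold upward (62.5%, against 7.39% of all genes), Krt7, Krt8, Krt18, Krt19 and Gata3. Of the other 3, Tfap2c had a log2 difference of -0.57, Hand1 of 0.86, and Cdx2 passed the floor at 17.9 in control cells without LIF alone. A second probe set of Hand1 gave 1.36 in control cells. The summed intensity of the 6 measured primitive streak and mesoderm markers was 116, 276, 94.7 and 97.8 in the same order. Mesp1 and Gsc were at the floor on every array, and T and Mixl1 were not measured here. The 8 fibroblast and feeder markers summed to 371, 666, 437 and 520. Of these, 3 were higher in control cells without LIF, Dcn, Col3a1 and Col1a1, while Thy1 had a log2 difference of -0.20 and Fbln1 of -0.13, Fbln1 being highest in Akt cells without LIF at 206. Postn was at the floor throughout. The 8 primitive and visceral endoderm markers summed to 360, 800, 489 and 670, with Foxa2 and Ttr at the floor on all arrays. In control cells without LIF, Sparc (446) and Dab2 (218) made up most of that sum. In control cells 3 of the 5 endoderm markers above the floor passed 2-fold upward, against 7.39% of all genes. They were Gata4 (at least 3.5-fold, from 8.5 to 55.2), Dab2 (5.51-fold) and Sparc (2.01-fold). The Sparc call was lost with every other scaling, and that of Gata4 with the floor at the 60th percentile. In Akt cells 1 of 6 did, Dab2 (3.75-fold), against 3.01% of all genes. Sox17 (56.2), Gata6 (30.6) and Gata4 (59.0) were highest in Akt cells with LIF, and Dab2 (283) in Akt cells without. Another Dab2 probe set was highest in control cells without LIF, at 50.1 against 28.1 in Akt cells without. A further Dab2 probe set was highest in Akt cells without LIF, at 32.3. The part of these cell types in the Wnt values was not tested.

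The genes whose course over the 4 arrays was closest to each member were found by the distance between log2 values centred on each gene's own mean, among 6254 other genes that passed the floor on any array. Nearest to Wnt3 was Amot, which encodes the junction protein angiomotin, at a distance of 0.25. Its intensities were 120 and 703 in control cells with and without LIF, and 39.3 and 172 in Akt cells. Capn2, a calpain protease gene (0.52), and the imprinted gene Peg3 (0.59) came next. Nearest to Wnt4 and to Wnt6 alike were the serine protease gene Tmprss2 (0.32 and 0.54), the growth factor gene Tgfb1 (0.48 and 0.62) and the matrix proteoglycan gene Dcn (0.50 and 0.79). Tmprss2 was at the floor on 3 arrays and at 288 in control cells without LIF. Nearest to Wls were Gbp3, an interferon-inducible GTPase gene (0.49), Edn1, which encodes endothelin (0.51), and the macrophage growth factor gene Csf1 (0.61). Among the members, Wnt4, Wnt6 and Wls lay 0.51 to 0.66 from each other and 1.57 to 1.86 from Wnt3. With 4 arrays and many values at the floor, these distances are a description.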

How the data were processed

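Total RNA of 4 samples was measured on 4 arrays, 1 per group. The authors' deposited values are linear intensities, 1 per probe set. The sources used here do not give the software or scaling behind them. Their 2% trimmed means ran from 80.3 to 121, so 12422 probe sets, all but the array controls, were quantile normalized, floored at the 40th percentile and put on the log2 scale (python 3.11.15, numpy 2.4.6, pandas 2.3.3). The annotation paired 10833 probe sets with 1 symbol, 396 with several and 1193 with none, and 10817 symbols were updated through RefSeq identifiers (GRCm38.p6). The probe set with the highest mean stood for a gene. The steps were tested on simulated data.

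The members, the 8 pathway lists and the 5 marker lists were chosen with earlier results of these data known. Named are all member probe sets, up to 6 genes per pathway list that were 2-fold different after LIF withdrawal, and 3 genes nearest each member. Genes between the limits are named as values of well-known pathway components, chosen after their values were seen. Alternatives were other scalings, floors and probe set rules. No test was run. The number of arrays limits the precision, and whether cultures were separate is not given.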

Additional observations from a re-analysis of the deposited data

Results flagged for a closer look

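Among the genes of the Wnt pathway lists, Bmp4, a growth factor gene listed as a beta-catenin target, was at least 2-fold different in opposite directions in the lines. Its log2 difference without against with LIF was 1.15 in the control line and -2.06 in the Akt line. A second probe set gave 0.66 and -1.74. The control call was lost with values as deposited, with the hybridization controls and when probe sets were averaged. With 1 array per group, whether the responses differ was not tested. No group has enough arrays to look for a sample far from the others.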

How the results depend on the processing

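The LIF differences of Wnt3, Wnt4, Wnt6 and Wls in control cells, and all 4 differences between the lines without LIF, kept their direction and stayed past 2-fold under each of the 7 alternatives. Those that changed only the probe set rule could not move these values, because each of the genes has 1 probe set. In control cells the LIF differences ran from 1.93 to 2.33 for Wnt3, 2.23 to 4.02 for Wnt4, 2.70 to 4.00 for Wnt6 and 3.02 to 3.39 for Wls (log2). Wnt3 in Akt cells ran from 1.25, a lower limit with the floor at the 60th percentile, to 2.13. With LIF, Akt against control cells, Wls passed 2-fold with values as deposited (-1.33). Wnt4 passed it with the floor at the 20th percentile (-1.71, a bound, as Akt cells with LIF were at that floor). With the floor at the 60th, Wnt3 in Akt cells with LIF was at the floor. Its -0.65 is then a bound that cannot show whether Wnt3 passed 2-fold. That higher floor moved the response of Akt minus control cells to -1.08 for Wnt3 and -2.70 for Wnt6, as more values lie at it. With it, both Akt arrays of Wnt6 and both of Wls were at the floor, at 47.8. The -2.70 is thus only the lower limit of 2.70 in control cells with its sign turned. It is no measured difference between the responses. No such value is given for Wnt4, which is at the main floor on both Akt arrays.

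Counts of genes at least 2-fold higher and lower are given below for LIF withdrawal in control cells, in Akt cells, and Akt against control cells with and without LIF, in that order. They were 442 and 383, 179 and 217, 208 and 216, and 353 and 488. With the floor at the 20th percentile they were 720 and 650, 480 and 490, 476 and 526, and 662 and 778. With the floor at the 60th the counts were 297 and 221, 69 and 123, 109 and 105, and 189 and 312. Values as deposited gave 776 lower in control cells, 66 and 1002 with LIF, and 168 higher without LIF. The hybridization controls gave 286 and 840 in control cells and 327 lower with LIF.

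The same counts over the pathway lists were 17 and 6, 5 and 5, 3 and 5, and 7 and 20. They include the 4 chosen genes and are out of 95, 93, 88 and 99 genes. The shares were 17.9% and 6.32%, 5.38% and 5.38%, 3.41% and 5.68%, and 7.07% and 20.2%. Leaving the 4 genes out gave 16.8% lower in the last comparison. Over all genes the shares were 7.39% and 6.4%, 3.01% and 3.65%, 3.5% and 3.64%, and 5.87% and 8.12%. As deposited, 10 were lower in control cells, 14 lower with LIF and 3 higher without LIF. The hybridization controls gave 10 lower in control cells. The floor at the 20th percentile gave 12 higher in Akt cells, 6 and 11 with LIF, and 15 higher without LIF. The floor at the 60th gave 10 and 3 in control cells, 3 and 3 in Akt cells, 0 and 3 with LIF, and 3 and 13 without LIF. Averaging probe sets gave 1 higher with LIF and 4 higher without LIF. Why these counts moved was not tested beyond the floors' own construction. No paired analysis was possible because each group has 1 array and the labels carry no replicate numbers.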

Other observations

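In the pathway lists, Dll1, Sox17 and Id2 differed at least 2-fold between the lines in both media without passing 2-fold after LIF withdrawal. They were chosen after their values were seen. The share of all genes with such a course was not counted, so nothing is read from their number. Dll1, a Notch ligand gene listed as a beta-catenin target, was higher in Akt than in control cells, by 1.99 in log2 with LIF and at least 1.60 without, with intensities of 19.4 and 5.75 in control and 76.8 and 47.8 in Akt cells. Its second probe set was at the floor on all arrays. Sox17, an endoderm transcription factor gene that also binds beta-catenin, was at least 1.83 higher in Akt cells with LIF and 1.31 without, from 5.77 and 17.3 in control cells to 56.2 and 42.7. The second probe set of Sox17 was likewise at the floor. Id2, an inhibitor of helix-loop-helix factors listed as a target, was lower in Akt cells, with log2 differences of -1.25 with LIF and -1.07 without, with intensities of 1330 and 2180 in control and 559 and 1040 in Akt cells. These comparisons share the arrays of the LIF responses.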
